A study of Mus musculus with 16 samples.

Results

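This account covers 9 genes of the tau, neurofilament and amyloid pathways: Mapt, Cdk5, Cdk5r1, Gsk3b, Nefl, Nefm, Nefh, App and Bace1. They were taken by name from the Agilent arrays, with Nefm found under its older symbol Nef3, and every probe of each was kept. All 9 were among the 17983 genes tested, and they held 18 of the 41174 probes, of which 17 were bright enough to test.

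The cerebellum was profiled at 3 weeks of age in 8 mice, 4 Npc1-/- and 4 wild-type (Npc1+/+). Both genotypes carry the strain label BALB/cNctr-Npc1m1N/J, on a BALB/c background. The labels state in-house breeding for the Npc1-/- mice and give the sex of neither genotype. The protein made from Npc1 exports cholesterol from lysosomes, and mice lacking it throughout the body serve as a model of Niemann-Pick disease type C. Each array took 500 ng of total RNA, and the Illumina arrays of the series were not used here because their probe numbers carry no gene names.

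Tau, encoded by Mapt, binds and stabilises axonal microtubules, and its phosphorylation by kinases such as Cdk5 and Gsk3b loosens that binding. Neurofilaments are built from light, medium and heavy subunits (Nefl, Nefm and Nefh) and set the calibre of large axons, which in the cerebellum include those of Purkinje cells and deep nuclear neurons. The amyloid precursor protein App is cut first by the protease Bace1 and then by gamma-secretase to release amyloid-beta peptides. Niemann-Pick disease type C is known for tau tangles and altered amyloid-beta, and those are protein changes that an RNA array does not measure.

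Of the 18 probes, 4 lie across an intron in the file coordinates and so read spliced RNA. Those and a coding probe each for Nefm and Nefh are shown. The App, Mapt and Gsk3b probes tie the measured signal to known parts of the proteins, and no part is marked in the others. All are 60 bases long, written 5′ to 3′ as the files give them, with positions on mm7, the build the headers name. Capitals in the App probe mark codons of the hydrophobic core of amyloid-beta. In the Mapt probe they mark the codons of the aggregation-prone hexapeptide that opens the third microtubule-binding repeat, and in the Gsk3b probe the codons of the magnesium-binding motif of the kinase.
App, chr16:84962262-84965122, minus strand: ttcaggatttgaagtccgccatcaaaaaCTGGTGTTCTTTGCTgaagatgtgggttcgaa
Mapt, chr11:104427278-104430438, plus strand: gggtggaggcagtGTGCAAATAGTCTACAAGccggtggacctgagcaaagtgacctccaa
Gsk3b, chr16:37894702-37898347, plus strand: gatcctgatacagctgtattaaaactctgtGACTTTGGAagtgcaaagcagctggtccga
Cdk5, chr5:23460278-23460752, minus strand: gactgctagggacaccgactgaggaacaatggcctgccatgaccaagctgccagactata
Nefm, chr14:62978814-62978873, minus strand: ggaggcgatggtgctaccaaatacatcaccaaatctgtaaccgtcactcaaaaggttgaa
Nefh, chr11:4891629-4891688, minus strand: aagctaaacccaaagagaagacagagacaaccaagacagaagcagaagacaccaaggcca

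Signals are log2 values with the 75th percentile of each array set to 0, so 1 unit is a doubling. The array labels were checked on Npc1, which averaged -2.47 ± 0.12 in Npc1-/- and -0.48 ± 0.12 in wild-type cerebellum (SD, n = 4 each). Between 22182 and 28137 probes were well above background per array, fewest on wild-type replicate 2. Along the first principal component (47.0% of the variance) the arrays stood apart, with wild-type replicate 3 at 73.0, wild-type replicate 4 at 23.0 and Npc1-/- replicate 4 at 9.71, and the other arrays between -36.5 and -10.4. The arrays lay on 4 slides, of which slide 1 held wild-type replicate 4 alone and slides 2, 3 and 4 held both genotypes. Precision is limited by the 4 arrays per genotype.

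None of the 9 genes differed between the genotypes beyond the spread between arrays. In limma's test with Benjamini-Hochberg adjustment over all genes tested, 0 of 9 passed at 0.05, where 0.767% of all genes did (132 higher and 6 lower in Npc1-/- mice). At an unadjusted p under 0.05 the count was also 0 of 9, against 7.4% of all genes. In 0 of 9 did all 4 arrays of one genotype lie beyond all 4 of the other, as happened in 4.92% of all genes. The log2 differences, Npc1-/- minus wild type, ran from -0.15 for Cdk5r1 to 0.21 for Nefm with a median of 0.01, and the median over all genes was -0.02. Adjusted p-values ran from 0.752 to 0.986. In the fit over probes, 0 of 17 member probes passed, where 0.523% of all probes did, and 0 of 17 had an unadjusted p under 0.05. A p above the threshold does not show equal levels, so the 95% interval of each difference is given below. The outermost bounds over the 9 genes were 0.732-fold, for Cdk5r1, and 1.70-fold, for Nefm.

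**Figure D1:**
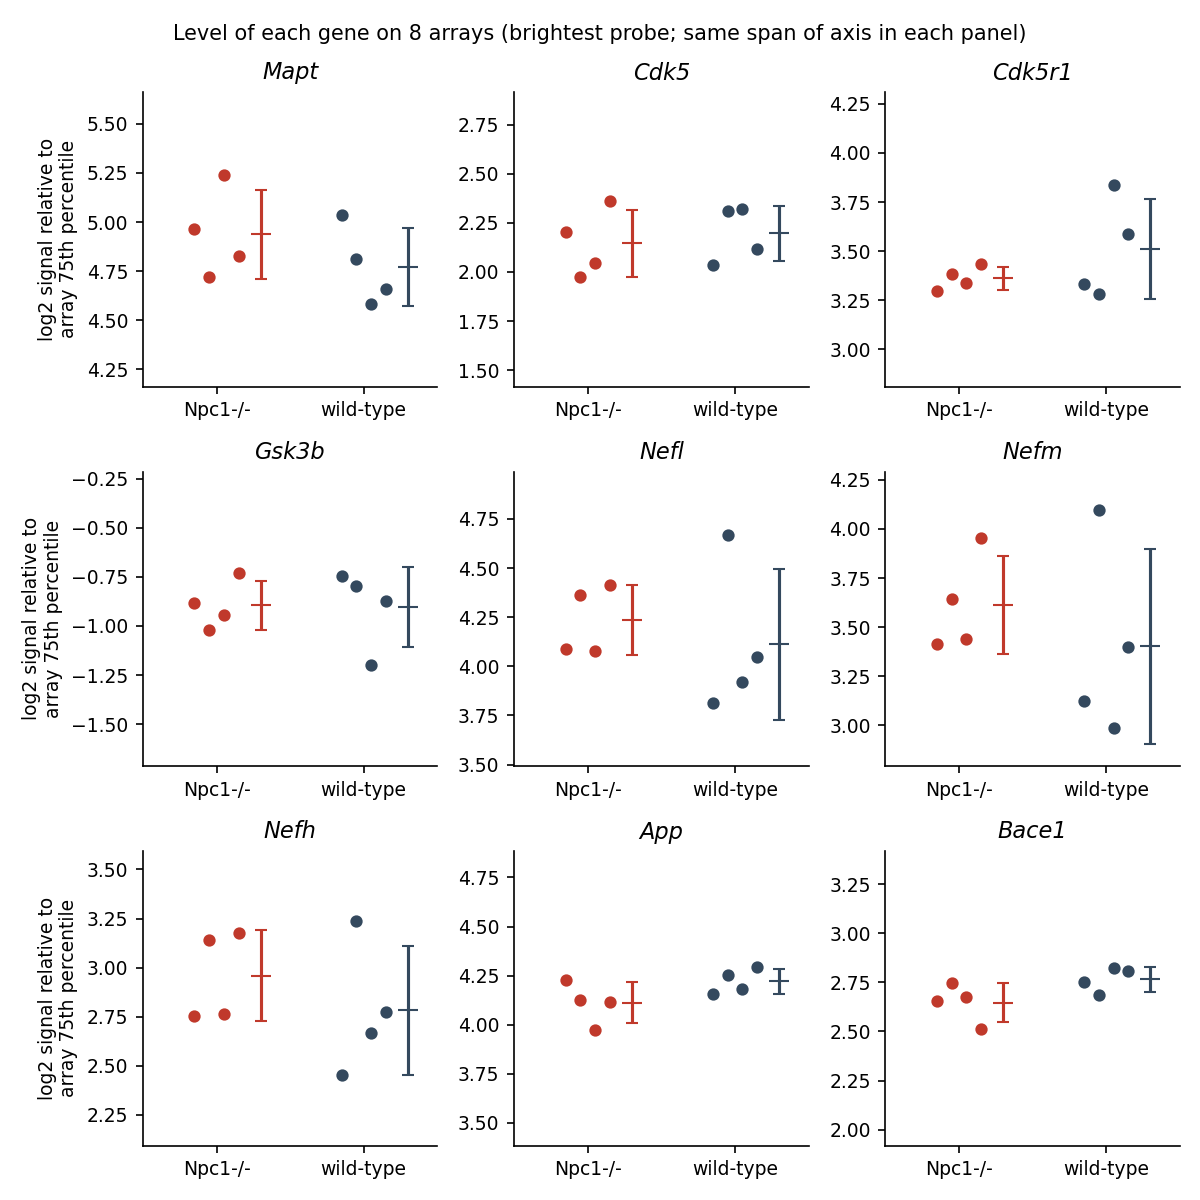
Log2 signal of the brightest probe of each gene, relative to the array's 75th percentile, on 4 Npc1-/- arrays (left, red) and 4 wild-type arrays (right, dark blue), with mean and SD beside the points. Every panel spans the same number of log2 units, and the genotypes overlap for all 9 genes, with wild-type replicate 2 (the second dark blue point) highest for Nefl, Nefm and Nefh.

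The 3 neurofilament subunits varied together from array to array, and more within a genotype than between genotypes. Nefm, the medium subunit, had 3.41, 3.64, 3.44 and 3.95 on Npc1-/- replicates 1 to 4, against 3.12, 4.10, 2.99 and 3.40 on wild-type replicates 1 to 4. The highest and the lowest value were both wild-type arrays. Its log2 difference was 0.21 ± 0.24 (SE, limma adjusted p = 0.790), with a 95% interval of -0.35 to 0.77, or 0.786-fold to 1.70-fold.

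Nefl, the light subunit on which the filament core is assembled, had 4.09, 4.36, 4.08 and 4.41 on Npc1-/- arrays, against 3.81, 4.67, 3.92 and 4.05 on wild-type arrays. The difference was 0.12 ± 0.19 (SE, limma adjusted p = 0.845), with an interval of -0.32 to 0.56. Nefh, the heavy subunit with the long phosphorylated tail, had 2.75, 3.14, 2.76 and 3.18 on Npc1-/- arrays, against 2.45, 3.24, 2.67 and 2.77 on wild-type arrays. Its difference was 0.18 ± 0.19 (SE, limma adjusted p = 0.776), with an interval of -0.25 to 0.60. On the brightest probe of all 3 subunits wild-type replicate 2 was highest and Npc1-/- replicate 4 next, and wild-type replicates 1 and 3 were the 2 lowest.

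Second probes of the subunits overlapped between the genotypes as well. The Nefl probe at chr14:62947487-62947546 had 3.56, 4.06, 3.62 and 4.00 on Npc1-/- arrays, against 3.30, 3.93, 3.53 and 3.78 on wild-type arrays. Here Npc1-/- replicates 2 and 4 lay above wild-type replicate 2, and the log2 difference was 0.18 ± 0.18 (SE, limma adjusted p = 0.817 over probes). The coding Nefh probe printed above had 1.01, 0.68, 1.02 and 1.13 on Npc1-/- arrays, against 0.56, 1.44, 0.17 and 0.70 on wild-type arrays, a difference of 0.24 ± 0.25 (SE, limma adjusted p = 0.821 over probes). Another probe named for Nefm in the files, at chr14:62941787-62941846, was well above background on 1 of 8 arrays, wild-type replicate 3, and was not tested. It lies 4412 bases from a Nefl probe and 36967 bases from the Nefm probe printed above.

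The Nefm probe is spotted 10 times on each array. The SD over its spots was 0.022 to 0.084 log2 units within an array, against 0.38 between the 8 array means, so the variation between arrays was larger than that between spots of one array. Pooled over both genotypes, the SD between arrays of a genotype was 0.39 for Nefm, 0.30 for Nefl and 0.29 for Nefh. Of all genes tested, 81.3%, 72.4% and 70.4% had a smaller one.

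Across the 8 arrays the subunits were correlated in each of the 3 pairs computed. Nefl and Nefh had a Pearson r of 0.97 (exact permutation p = 0.000149, two-sided, adjusted 0.000298) and a Spearman rho of 0.90 (exact permutation p = 0.00456, adjusted 0.00456). Nefl and Nefm had r = 0.96 (exact permutation p = 0.000198, adjusted 0.000298) and rho = 0.95 (exact permutation p = 0.00114, adjusted 0.00342). Nefm and Nefh had r = 0.92 (exact permutation p = 0.000942, adjusted 0.000942) and rho = 0.90 (exact permutation p = 0.00456, adjusted 0.00456). Without the 2 arrays farthest from the median, wild-type replicate 2 and Npc1-/- replicate 4, r was 0.98, 0.90 and 0.81 in the same order of pairs. After each genotype's mean was subtracted it was 0.97, 0.96 and 0.91. The arrays share their scaling, and the 8 points are the same arrays for every pair. The permutation treats the 8 arrays as exchangeable, although they lay on 4 slides and 2 scan days. No share of all gene pairs with such an r was computed. The p-values therefore do not show a relation particular to the subunits.

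The neurofilament differences within slides did not share a sign. On slides 2 and 4 the differences were 0.65 and 0.32 for Nefm, 0.44 and 0.27 for Nefl and 0.48 and 0.31 for Nefh. On slide 3, which held wild-type replicate 2, they were -0.41, -0.42 and -0.27. Each within-slide value rests on 1 wild-type array, and slide 3 was also the only slide of the second scan day. Slide 3 held Npc1-/- replicates 1 and 4 as well. The mean deviation of the 3 subunits was -0.10 and 0.33 on those arrays and 0.48 on wild-type replicate 2. The source of the negative sign on slide 3 was not tested. With the scan day as a block the differences were 0.09 for Nefm, 0.04 for Nefl and 0.11 for Nefh. Without wild-type replicate 2 the differences were 0.44 for Nefm, 0.31 for Nefl and 0.33 for Nefh. Their unadjusted p-values were then 0.031, 0.045 and 0.068 and their limma adjusted p-values 0.442, 0.470 and 0.506, and 10.4% of all genes had an unadjusted p under 0.05 in that fit. Other arrays moved the values the other way: without wild-type replicate 1 they were 0.12 for Nefm, 0.02 for Nefl and 0.07 for Nefh, and without wild-type replicate 3 they were 0.07, 0.06 and 0.14. Without Npc1-/- replicate 4 they were 0.10, 0.06 and 0.10.

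Markers of other cells moved over the same arrays. Of 9 markers of deep nuclear and hindbrain neurons, 6 could be tested and none passed. All 6 had positive differences, with a median of 0.54. By limma's test 2 of the 6 had an unadjusted p under 0.05, against 7.4% of all genes. In 1 of the 6 the genotypes did not overlap, against 4.92% of all genes. Chat and Isl1, which mark motor neurons, were not well above background on any array. The summed level of the 6, in units of the array's 75th percentile, was 7.11 to 8.56 on Npc1-/- arrays and 4.47 to 7.72 on wild-type arrays. Their median, as a log2 deviation from the mean of all arrays, was 0.29, 0.41, 0.16 and 0.27 on Npc1-/- replicates 1 to 4. It was -0.84, 0.06, -0.66 and -0.11 on wild-type replicates 1 to 4, lowest on the 2 arrays with the least neurofilament RNA. On wild-type replicate 2, the array with the most, it lay below every Npc1-/- array. Of the 9 listed markers, 4 were well above background on all 8 arrays, so the median rests partly on dim genes. The brightest gene in that sum, Spp1, is also made by activated microglia, whose markers rose on the same arrays as described below. Spp1 had 2.10, 2.21, 2.10 and 2.21 on Npc1-/- arrays, against 1.19, 2.08, 1.72 and 1.60 on wild-type arrays. The part of microglia in Spp1 and in the sum was not tested.

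The 10 myelin markers all had negative differences, with a median of -0.60 and a range of -1.13 to -0.19. None passed, but 8 of 10 had an unadjusted p under 0.05, against 7.4% of all genes, and in 7 of 10 the genotypes did not overlap, against 4.92%. Their summed levels did not overlap either (252.7 to 307.6 on Npc1-/- arrays and 335.4 to 443.8 on wild-type arrays). Their median deviation was -0.42, -0.32, -0.40 and -0.05 on Npc1-/- replicates 1 to 4 and 0.10, 0.64, 0.19 and 0.32 on wild-type replicates 1 to 4. It was highest on wild-type replicate 2, as were the neurofilament genes. On Npc1-/- replicate 4, the next highest array for neurofilament, the myelin median lay below every wild-type value. The part of these cells in the neurofilament values was not tested. In whole tissue, fewer cells of a type and less RNA per cell cannot be told apart.

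**Figure D2:**
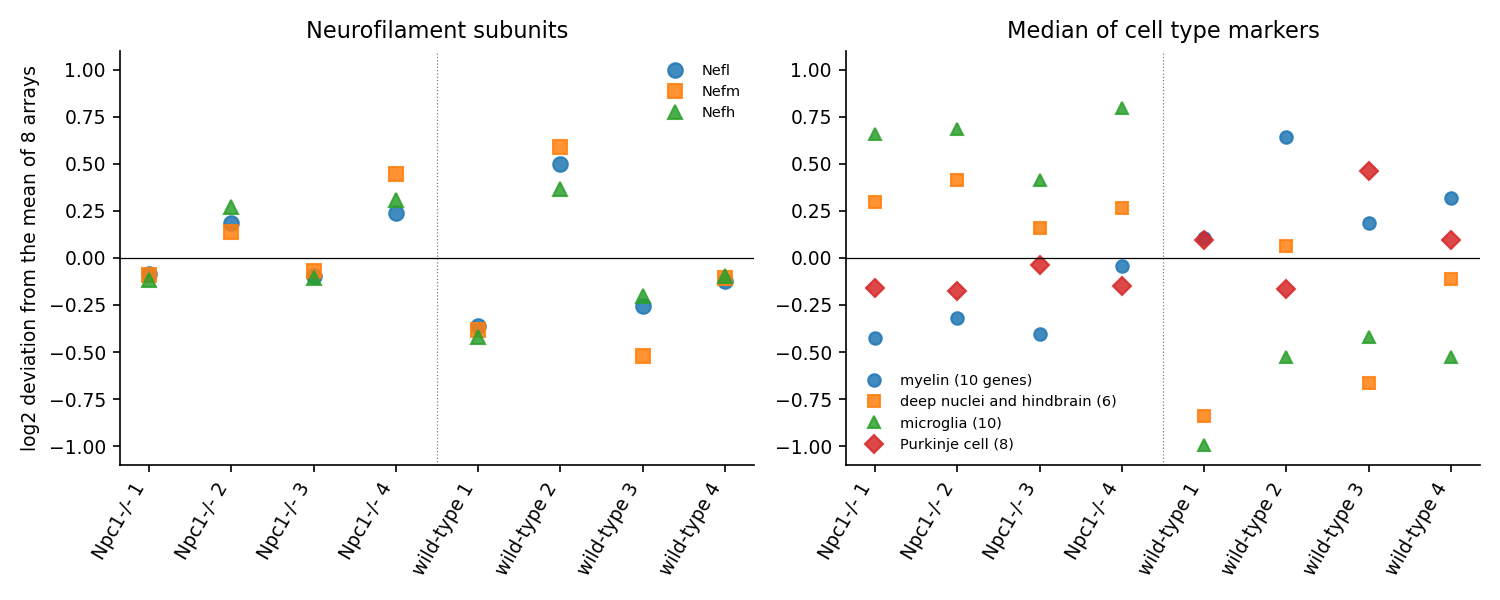
Left, log2 deviation of Nefl, Nefm and Nefh from their mean over 8 arrays, with Npc1-/- replicates 1 to 4 left of the dotted line and wild-type replicates 1 to 4 right of it. Right, the median deviation of 4 marker lists on the same arrays. The 3 subunits lie on the same side of 0 on each array and spread from about -0.52 to 0.59 within wild-type arrays alone.

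None of the 3 Mapt probes passed the test, and they did not share a sign. The brightest probe, at chr11:104439072-104439131, had 4.97, 4.72, 5.24 and 4.82 on Npc1-/- arrays, against 5.03, 4.81, 4.58 and 4.66 on wild-type arrays. The difference was 0.17 ± 0.15 (SE, limma adjusted p = 0.753), with an interval of -0.17 to 0.50. A probe 1906 bases further on, at chr11:104441038-104441097, had 4.24, 4.39, 4.39 and 4.07 on Npc1-/- arrays, against 4.32, 4.20, 4.26 and 4.38 on wild-type arrays. Its difference was -0.02 ± 0.11 (SE, limma adjusted p = 0.961 over probes), with an interval of -0.26 to 0.22.

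The Mapt probe printed above, which reads spliced RNA across the microtubule-binding repeats, had 4.21, 3.94, 4.00 and 3.81 on Npc1-/- arrays. It had 3.85, 3.97, 3.98 and 3.86 on wild-type arrays. Its difference was 0.07 ± 0.11 (SE, limma adjusted p = 0.864 over probes), with an interval of -0.17 to 0.32. The brightest probe spread over 0.66 log2 units across the 8 arrays, against 0.40 for the intron-spanning probe and 0.32 for the remaining one. Within slides 2, 3 and 4 the brightest probe gave 0.13, 0.08 and 0.21. Its difference was 0.06 without Npc1-/- replicate 3, 0.10 without wild-type replicate 3 and 0.25 without wild-type replicate 1. The mean of the 3 probes gave 0.07.

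Neither the tau kinases nor the Cdk5 activator passed the test. Cdk5, a kinase of postmitotic neurons, had 2.20, 1.97, 2.05 and 2.36 on Npc1-/- arrays, against 2.04, 2.31, 2.32 and 2.12 on wild-type arrays. The ranges nearly coincided, and the difference was -0.05 ± 0.12 (SE, limma adjusted p = 0.894), with an interval of -0.32 to 0.22. Within slides it was -0.35, -0.03 and 0.01.

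Cdk5r1 encodes p35, the activator without which Cdk5 is inactive and from which calpain releases the longer-lived fragment p25. It had 3.30, 3.38, 3.34 and 3.43 on Npc1-/- arrays, against 3.33, 3.28, 3.84 and 3.59 on wild-type arrays. The Npc1-/- arrays lay close together, with an SD of 0.06, while the wild-type SD was 0.26 and wild-type replicate 3 was highest. The difference was -0.15 ± 0.13 (SE, limma adjusted p = 0.755), with an interval of -0.45 to 0.16, and it was -0.04 without wild-type replicate 3. Within slides it was -0.46, 0.08 and 0.00.

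Gsk3b, the other main tau kinase, which also acts in Wnt and insulin signalling, had -0.88, -1.02, -0.94 and -0.73 on Npc1-/- arrays. It had -0.74, -0.80, -1.20 and -0.87 on wild-type arrays, which spanned the wider range. The difference was 0.01 ± 0.12 (SE, limma adjusted p = 0.986), with an interval of -0.28 to 0.29, and its sign changed under 8 of the 18 alternative settings. The second Gsk3b probe, at chr16:37950232-37950291, gave 0.09 ± 0.13 (SE, limma adjusted p = 0.861 over probes).

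**Figure D3:**
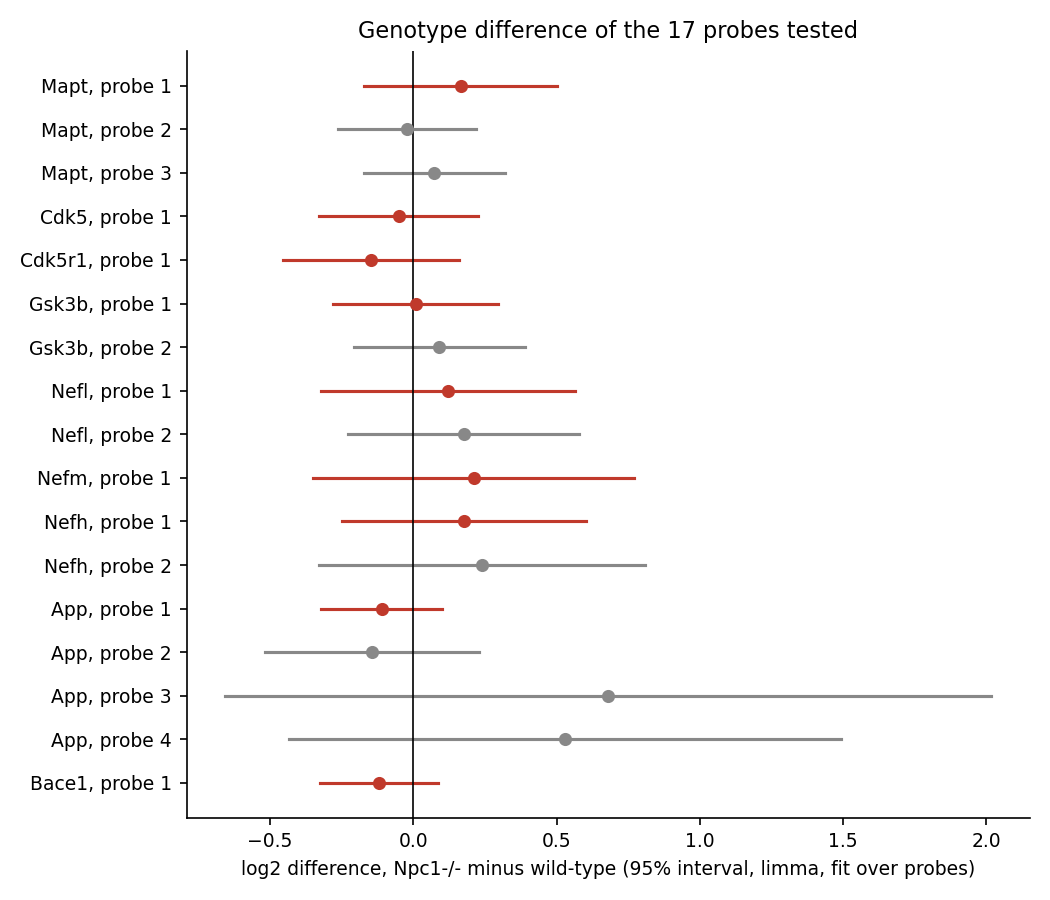
Log2 difference, Npc1-/- minus wild type, of each of the 17 probes tested, with 95% intervals from limma's fit over all probes. Red marks the probe that stands for the gene and grey its other probes. Every interval holds 0, and those of the 2 App cDNA clone probes (probes 3 and 4) are the widest.

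On the probes that stand for the genes, App and Bace1 had the narrowest spreads of the 9, and neither passed the test. The intron-spanning probe printed above, which reads the amyloid-beta part of the coding sequence, had 4.23, 4.13, 3.97 and 4.12 on Npc1-/- arrays. It had 4.16, 4.25, 4.18 and 4.29 on wild-type arrays, where 2 values lay above every Npc1-/- value. The difference was -0.11 ± 0.09 (SE, limma adjusted p = 0.752), and the interval of -0.31 to 0.09 runs from 0.804-fold to 1.07-fold. This probe too is spotted 10 times, with an SD over spots of 0.034 to 0.075, against 0.10 between arrays. Only 4.09% of all genes had a smaller spread within genotypes than App on this probe. Within slides the difference was -0.05, -0.08 and -0.18.

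A second App probe, at chr16:84954571-84954630, had 3.64, 4.09, 3.95 and 3.97 on Npc1-/- arrays, against 3.98, 3.69, 4.34 and 4.21 on wild-type arrays. Its difference was -0.14 ± 0.16 (SE, limma adjusted p = 0.833 over probes). The SD of this single-spot probe was 0.19 on Npc1-/- and 0.28 on wild-type arrays. For the intron-spanning probe the SD was 0.10 and 0.06. The remaining App probes were designed on cDNA clones. The files tie them to App by name and by a position on the same chromosome and strand. Whether they read the App mRNA is not stated there. One, at chr16:85169718-85169777, had -2.15, -2.19, -2.03 and -3.13 on Npc1-/- arrays, against -1.93, -2.63, -3.93 and -3.12 on wild-type arrays. Its difference was 0.53 ± 0.42 (SE, limma adjusted p = 0.811 over probes), and within slides it was 1.74, -0.01 and -0.10.

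The other clone probe, at chr16:85012384-85012443, was well above background on 5 of 8 arrays. It had -4.39, -4.82, -4.05 and -5.98 on Npc1-/- arrays, against -4.22, -5.26, -6.87 and -5.60 on wild-type arrays, a difference of 0.68 ± 0.59 (SE, limma adjusted p = 0.811 over probes). Both clone probes were lowest on wild-type replicate 3, Npc1-/- replicate 4 and wild-type replicate 4, the arrays with positive values on the first principal component. The part of that component in the clone probes' values was not tested. When the 4 App probes were averaged, the log2 difference of App was 0.24 (limma adjusted p = 0.779), with the opposite sign to that of the main probe.

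**Figure D4:**
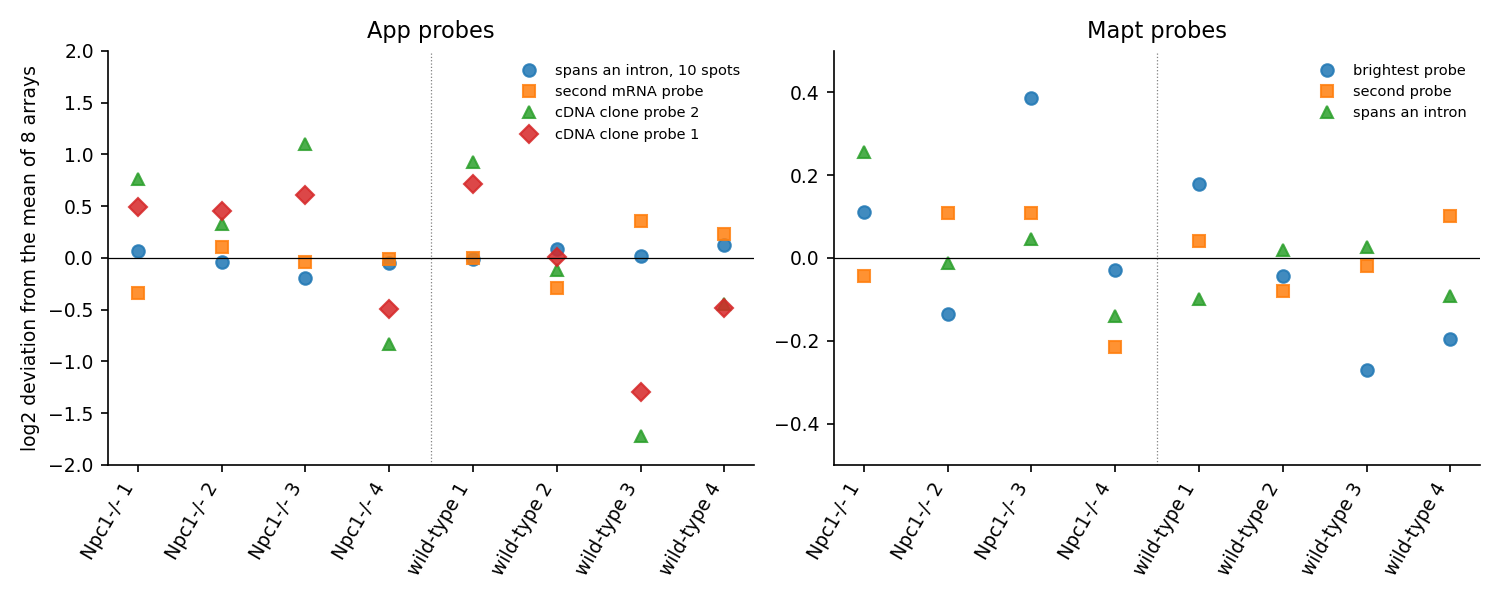
Log2 deviation of each App probe (left) and Mapt probe (right) from its own mean over 8 arrays, Npc1-/- arrays left of the dotted line and wild-type arrays right of it; the vertical scales differ. The 2 App cDNA clone probes move together over about 2.01 and 2.83 log2 units, while the intron-spanning App probe spans 0.32.

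Bace1, the beta-secretase that makes the first cut in App, had 2.65, 2.75, 2.67 and 2.51 on Npc1-/- arrays, against 2.75, 2.68, 2.82 and 2.81 on wild-type arrays. The 2 highest values were wild-type arrays and the 2 lowest were Npc1-/- arrays, but the genotypes overlapped. The difference was -0.12 ± 0.09 (SE, limma adjusted p = 0.752), and the interval of -0.32 to 0.08 runs from 0.801-fold to 1.06-fold. Within slides it was -0.08, -0.10 and -0.08, and 3.26% of all genes had a smaller spread within genotypes. The single Bace1 probe lies at chr9:45820081-45820140.

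Further genes of the same pathways were taken from 6 lists, 101 genes in all, of which 100 could be tested. None passed over all genes, 2 had an unadjusted p under 0.05 and in 2 the genotypes did not overlap, against the shares of all genes given above. Their median log2 difference was -0.04, with 39 positive and 61 negative values.

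Among 29 tau kinases, phosphatases and cofactors the median was -0.03, with 11 positive and 18 negative. The brightest were the catalytic calcineurin subunit Ppp3ca, at -0.17 ± 0.11 (SE), and the casein kinase Csnk1e, at 0.02 ± 0.12. The largest differences were those of the stress kinase JNK1 gene Mapk8, at 0.44 ± 0.24, and of Cdk5r2, which encodes the p35-related Cdk5 activator p39, at 0.35 ± 0.27. The list's single gene with an unadjusted p under 0.05 was the tyrosine kinase Fyn, which binds tau (-0.25, unadjusted p = 0.049, limma adjusted p = 0.672), named after its value was seen. Of 18 microtubule-associated proteins and tubulins, 6 were positive and 12 negative, with a median of -0.07. Stmn4 and Tubb2b had the largest differences, at -0.33 ± 0.15 and -0.25 ± 0.15, and the brightest, Tubb2a and Stmn3, had -0.11 ± 0.14 and -0.16 ± 0.15. Stmn3 and Stmn4 encode stathmins, which bind tubulin, and Tubb2a and Tubb2b encode beta-tubulins.

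Of 15 intermediate filament partners and axonal transport genes, 8 were positive and 7 negative, with a median of 0.02. Kif5a and Klc1, a heavy and a light chain of the kinesin motor that carries axonal cargo, were the brightest at 0.02 ± 0.11 and -0.08 ± 0.11. The filament gene Prph, which is also one of the hindbrain markers above, had 0.28 ± 0.67.

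Among 11 secretase genes, 3 were positive and 8 negative, with a median of -0.07. The gamma-secretase subunits Psenen and Psen2 had -0.01 ± 0.11 and -0.11 ± 0.12. The beta-secretase homologue Bace2 and the protease Adam17, which cuts App as an alpha-secretase, had -0.22 ± 0.15 and -0.20 ± 0.09. Of 18 App family, adaptor and sorting genes, 5 were positive and 13 negative, with a median of -0.07. The App homologues Aplp1 and Aplp2 had -0.16 ± 0.12 and -0.12 ± 0.09, the App-binding adaptor Apbb1 had -0.23 ± 0.15 and the membrane protein gene Itm2b had -0.15 ± 0.13.

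Genes for amyloid-beta binding and clearance had a median of 0.11, with 6 of 9 positive, and the protease gene Mme was too dim to test. Apoe, the main lipid carrier of the brain, had 0.34 ± 0.12 (SE, unadjusted p = 0.023, limma adjusted p = 0.521). The cysteine protease inhibitor gene Cst3 had 0.29 ± 0.13 and the transthyretin gene Ttr -0.35 ± 0.66. Apoe and Cst3 are also expressed by microglia and astrocytes. On the same arrays 6 of 10 microglia and macrophage markers passed, all higher in Npc1-/- mice, against 0.767% of all genes in either direction. Among them were Lyz2 at 3.03 ± 0.19 and Cd68 at 2.08 ± 0.13 (SE, limma adjusted p = 0.00045 for both). All 10 were positive, and in 9 of 10 the genotypes did not overlap, against 4.92% of all genes. The summed level of the 10 was 28.4 to 36.5 on Npc1-/- arrays and 7.46 to 11.2 on wild-type arrays, and its part in the Apoe and Cst3 values was not tested.

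**Figure D5:**
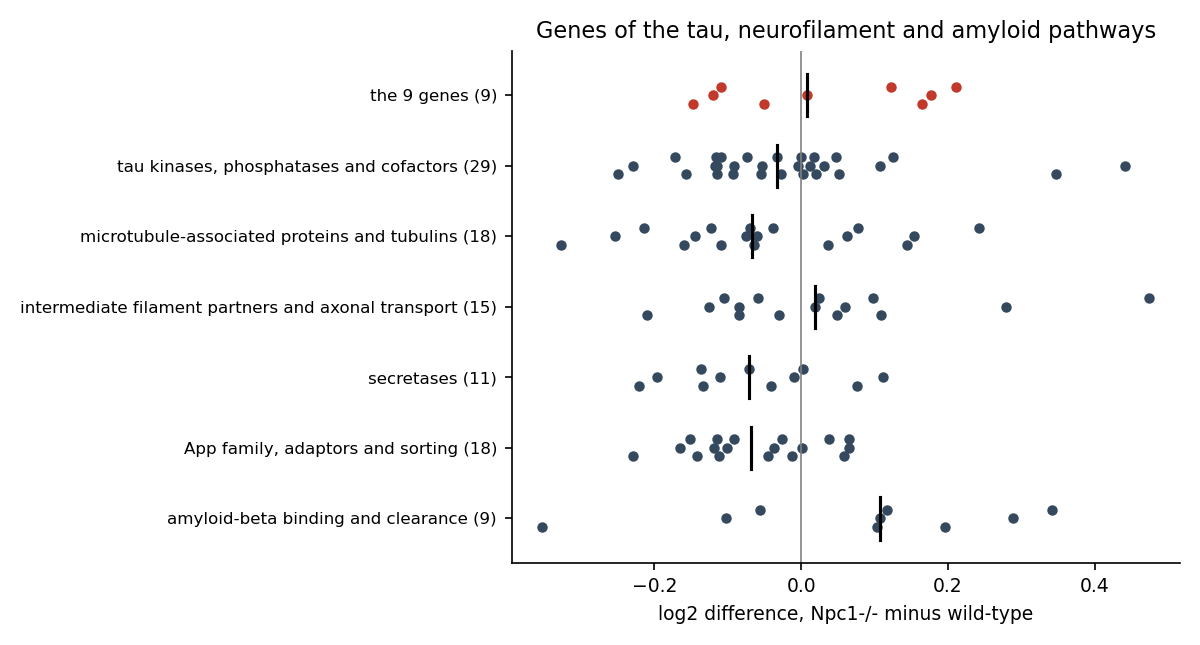
Log2 difference, Npc1-/- minus wild type, of the 9 genes (top row, red) and of the 100 further pathway genes tested in 6 lists, 1 point per gene, with the median of each row as a black bar. Row medians lie between -0.07 and 0.11, and none of the points passed limma's test over all genes.

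Markers of cerebellar cell types were examined beside the members. All 8 Purkinje cell markers had negative differences (median -0.22) and none passed, with summed levels of 305.2 to 341.7 on Npc1-/- arrays and 326.5 to 429.1 on wild-type arrays. In 1 of the 8 the genotypes did not overlap, against 4.92% of all genes, and 0 had an unadjusted p under 0.05. All 10 granule cell markers were negative as well (median -0.23) and none passed, with summed levels of 204.3 to 255.3 and 232.0 to 281.0 in the same order of genotypes. Of these, 2 had an unadjusted p under 0.05, against 7.4% of all genes, and the genotypes overlapped in all 10. Itpr1, the calcium channel abundant in Purkinje cells, had -0.03 ± 0.12, the smallest difference of a list that ran to -0.40. The granule cell synapse organiser Cbln1 had -0.21 ± 0.14 (SE). Of 7 interneuron markers 4 were positive, with a median of 0.00, and the vesicular GABA transporter Slc32a1 had -0.11 ± 0.11. None of the 7 passed, and in 1 the genotypes did not overlap, against 4.92% of all genes. Of 9 astrocyte and Bergmann glia markers 6 were positive (median 0.05), and none passed. The brightest, Aldoc, had 0.00 ± 0.10, while the intermediate filament gene Gfap, named after its value was seen, had 1.08 ± 0.19 (SE, limma adjusted p = 0.0516) with no overlap between the genotypes. Of 6 endothelial markers 4 were positive (median 0.04) and none passed, with Cldn5 at -0.02 ± 0.13. The brightest marker of myelin, Mbp, had -0.19 ± 0.12, the smallest difference of that list, and the brightest of the hindbrain list, Spp1, had 0.51 ± 0.17 (SE, limma adjusted p = 0.473).

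The genes whose level ran most like a member's over the 8 arrays were taken from 12218 named genes above background on every array, by Pearson r, as a description. Nearest to the mean of Nefl, Nefm and Nefh were Padi2 (0.99), Sprr2b (0.98), Car14 (0.98), Gpat3 (0.97) and Slc30a3 (0.96). Padi2 encodes an enzyme that converts arginine to citrulline, Car14 a carbonic anhydrase, Gpat3 an enzyme of triglyceride synthesis and Slc30a3 the zinc transporter of synaptic vesicles. None of the 5 passed between the genotypes, with log2 differences from 0.07 for Sprr2b to 0.35 for Slc30a3. Nearest to the brightest Mapt probe were Sfrs10 (0.97), Ccdc88c (0.97) and Cdh11 (0.97), and nearest to App were Kcnip2 (0.93), Xxylt1 (0.91) and Sox21 (0.91). These rest on 8 arrays that share their scaling, and the highest of 12218 correlations is high by selection.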

How the data were processed

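Agilent one-colour arrays were read as deposited. The submitters' processing notes name Agilent Feature Extraction 9.5 as the source of the deposited intensity values. Its spatial and multiplicative detrending were on, per the file headers, and no scaling between arrays is recorded there. Deposited flags of 0 or 1 mark spots above background, saturated or outlying, per the file headers. No non-control spot was saturated.

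Signals were taken as log2 minus the array's 75th percentile, outlier spots were left out, and spots of a probe were averaged. Probes above background on at least 4 of 8 arrays were tested, with the brightest probe of each gene standing for it. Names were updated through RefSeq (GRCm38.p6), and coordinates are those of the files. The comparison of genotypes used limma (version 3.58.1, under R 4.3.3), two-sided and with no other factor, once over genes and once over probes. The fit was tested on simulated data with independent noise and planted changes larger than the members' differences. Those data held no slide or scan day effect, so the test cannot speak to such effects. Plots used matplotlib 3.10.9.

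The members, gene lists, tests and alternatives were chosen with earlier results of these data known. Named genes were the members, up to 4 genes per pathway list (brightest and most changed, or passing), the brightest and up to 2 passing genes per marker list, and the nearest genes by correlation. Some genes of these lists are not reported here by name.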

Additional observations from a re-analysis of the deposited data

Results flagged for a closer look

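In 36 sets of 4 arrays (18 probes in each genotype), 1 array stood far from the other 3 by Dixon's test at the 95% level, where chance gives about 5% of sets. The App cDNA clone probe at chr16:85169718-85169777 had -3.13 on Npc1-/- replicate 4, while the other Npc1-/- arrays lay between -2.19 and -2.03. The intron-spanning App probe had 4.12 on that array, inside the range of the other Npc1-/- arrays.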

How the results depend on the processing

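No member passed under any of the 18 alternatives: 10 processing settings and 8 fits without 1 array. The lowest adjusted p of a member was 0.284, for Cdk5r1 with array weights, a fit in which 21% of all genes had an unadjusted p under 0.05. The median log2 difference of the members stayed between -0.03 and 0.07 over the processing settings and between -0.05 and 0.05 without 1 array. Mapt, Cdk5r1, Nefl, Nefm, Nefh and Bace1 kept their sign throughout.

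Gsk3b, Cdk5 and App changed sign, and the cause was not tested except where named. Gsk3b had -0.026 after normexp correction with quantile normalization, -0.029 after quantile normalization, -0.0024 after scaling to the median of detected probes, -0.011 with the slide as a block, -0.032 with the scan day as a block and -0.050 with array weights. It ran from -0.0905 to 0.061 without 1 array. Cdk5 had 0.0082 after quantile normalization and ran from -0.12 to 0.0063 without 1 array. App had 0.24 when its 4 probes were averaged, which brings in the clone probes and is larger than any member's reported difference. App was -0.06 without Npc1-/- replicate 3 and Bace1 -0.08 without Npc1-/- replicate 4, and quantile normalization gave -0.03 for App, -0.07 for Bace1 and -0.07 for Cdk5r1.

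The number of genes higher in Npc1-/- mice was 82 after quantile normalization, 56 with no filter, 83 over probes above background on all 8 arrays, 37 with the slide as a block and 286 with array weights. It ran from 52 to 144 without 1 array. The number lower was 3, 1 and 78 with no filter, the slide block and array weights, and 2 to 8 without 1 array. As reported, the counts are 132 and 6. The labels do not state that replicate numbers in the titles pair the arrays. Deviations of same-numbered arrays from their genotype means correlated at 0.15, 0.04, -0.44 and 0.20. Those of differently numbered arrays ran from -0.61 to 0.59, so these values cannot show whether the numbers pair arrays. With the replicate block 26 genes were higher and 1 lower, and no member passed.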
